A study of Mus musculus with 6 samples.

Results

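The 10 genes described here encode cytochrome P450 enzymes of the Cyp2 family and were chosen by name: Cyp2a4, Cyp2a5, Cyp2a12, Cyp2d9, Cyp2d10, Cyp2d22, Cyp2d26, Cyp2f2, Cyp2j5 and Cyp2u1. A gene was counted as measured where at least 1 probe set of the array, a set of short oligonucleotides against a transcript, listed its symbol and no other. That held for 8 of the 10 genes, among 18193 genes measured in all. Cyp2a4 and Cyp2a5 were not measured by this rule. Liver RNA was compared between 3 Dnajb4-/- and 3 Dnajb4+/+ mice on an Affymetrix mouse expression array, with 1 array per mouse by the labels. Dnajb4 encodes HLJ1, a heat shock protein of the DnaJ family that acts as a co-chaperone. All mice were labelled as male C57BL/6 mice aged 6 to 8 weeks, no treatment is named for these livers, and the sources used here name no Cre or tissue restriction of the Dnajb4 knockout and do not say which part of the gene it removes. Values are intensities on a linear scale, and every log2 difference is Dnajb4-/- minus Dnajb4+/+.

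Cytochrome P450 enzymes sit mostly in the endoplasmic reticulum, where they take electrons from a reductase and insert an oxygen atom into fat-soluble molecules. The liver holds more of them than other organs and uses them to clear drugs, pollutants, steroids and fatty acids. Many mouse Cyp2 genes lie in clusters of close copies, and several are made at different levels in male and female liver or in different zones of the liver lobule.

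Before the genes themselves, some properties of the arrays differed between the genotypes. Averaged on the log2 scale over its probe sets, Dnajb4 read 117, 125 and 130 in Dnajb4-/- and 132, 143 and 135 in Dnajb4+/+ arrays. This mean did not pass the test (log2 difference -0.14, adjusted p = 0.145 by limma). The brightest Dnajb4 probe set, 1451177_at, read 453 to 480 in Dnajb4-/- and 566 to 612 in Dnajb4+/+ livers (log2 difference -0.34, adjusted p = 0.00768 over probe sets by limma). The arrays overlapped at the other Dnajb4 probe sets. Which part of the gene these probe sets read was not analysed here, so they are a weak check of the labels. Xist, an RNA of female cells, read 14.3 to 17.1 in Dnajb4-/- arrays and 364 to 402 in Dnajb4+/+ arrays, which goes against the male label of all the Dnajb4+/+ arrays. The measured Y-linked genes did not pass the test (Eif2s3y 0.21, Uty 0.27 and Kdm5d 0.02 on the log2 scale). Eif2s3y and Uty were lower in Dnajb4+/+ arrays without overlap, as 35.5% of all genes did not overlap. Eif2s3y read 62.6 to 81.3, above the array medians in every array of both genotypes. Uty (18.9 to 26.3) and Kdm5d (24.6 to 26.4) read below the array medians of 31.8 to 32.5 in every array, so their lack of a call says little. The ratio of 3′ to 5′ control signal, which grows as RNA is less complete, was 1.45 ± 0.0265 in Dnajb4-/- and 1.17 ± 0.0134 in Dnajb4+/+ arrays for Gapdh, and 3.17 ± 0.0602 and 2.65 ± 0.0485 for Actb (SD, n = 3 each). Since Xist and the Gapdh and Actb ratios separate all arrays by genotype, their part in any result below cannot be told apart from that of the genotype.

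Among the 8 measured genes, 4 were higher in Dnajb4-/- livers and none was lower, while 4 stayed under the threshold of an adjusted p below 0.05. Outside this count, the probe set shared by Cyp2a4 and Cyp2a5 was lower in Dnajb4-/- livers. Its log2 difference was -1.30 (adjusted p = 1.79e-05 by limma over probe sets), and it is described at the end. The higher genes were Cyp2u1, Cyp2d9, Cyp2j5 and Cyp2f2, by 1.48, 1.23, 1.11 and 1.11 times. Among all 18193 genes, 14.7% passed, 5.09% as higher and 9.57% as lower. Of the genes that passed, 34.7% were higher in Dnajb4-/-, and 51.7% when each array was centred on its brighter probe sets. The count of 4 fell to 2, Cyp2d9 and Cyp2u1, when any 1 of the 6 arrays was left out and when the replicate number was a block. At an unadjusted p under 0.05, 5 of the 8 genes differed by limma, all as higher, and Cyp2d10 was the added one, whereas 5370 of all 18193 genes did. The median log2 difference was 0.12 over the 8 genes and 0.01 over all genes. Liver Cyp2 genes are bright on such arrays, and 7 of the 8 lay above the upper quartile of signal of all genes. Among all genes that bright, 30.8% passed, 9.43% as higher and 21.4% as lower, with a median log2 difference of -0.03. The intensities of the genotypes did not overlap for 5 of the 8 genes, against 35.5% of all genes and 62% of those above the upper quartile. A change in the number of cells that make a transcript and a change in transcript per cell cannot be told apart in whole liver RNA.

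**Figure D1:**
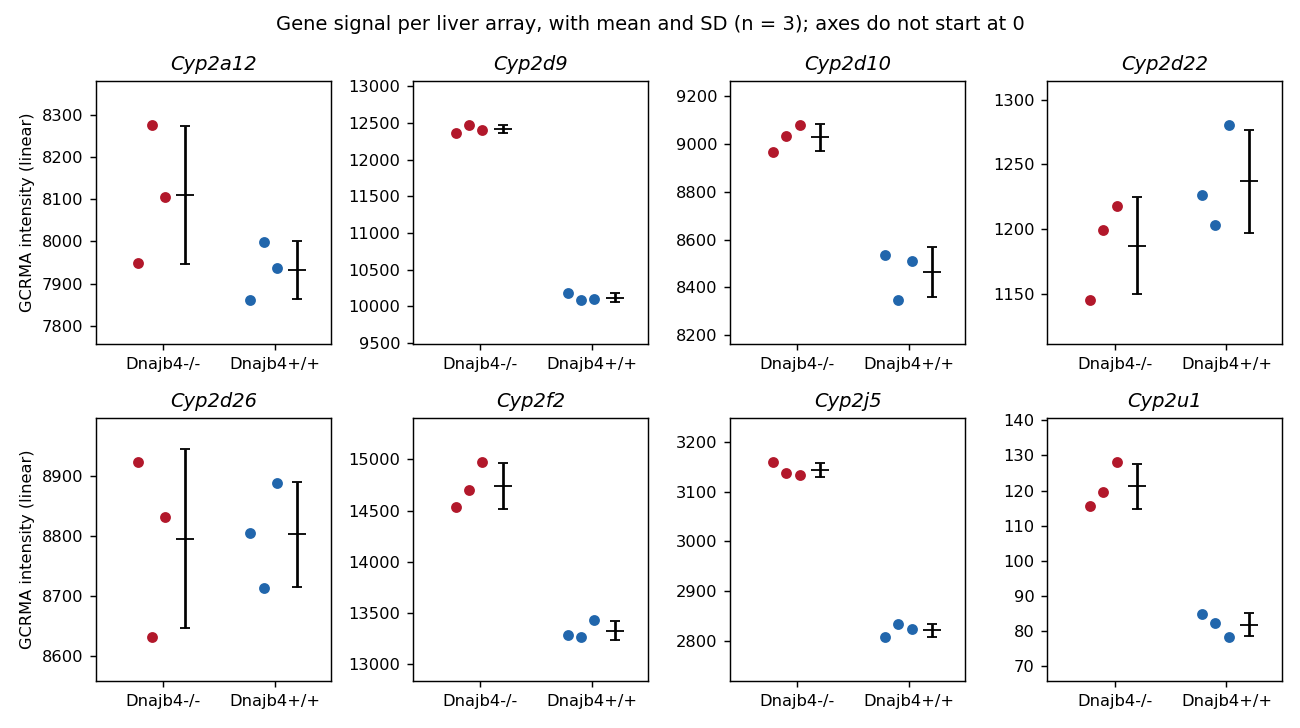
Intensity of each measured gene in each array on a linear scale that differs between the panels, with points for the 3 Dnajb4-/- arrays to the left of the 3 Dnajb4+/+ arrays and a line with an error bar for each mean and SD (axes do not start at 0). The points of the genotypes are apart for Cyp2d9, Cyp2d10, Cyp2f2, Cyp2j5 and Cyp2u1, and they overlap for Cyp2a12, Cyp2d22 and Cyp2d26.

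The Cyp2d genes lie in a cluster on chromosome 15, and 1 of the 4 described here that lie in it, Cyp2d9, passed the test. Cyp2d9, a testosterone hydroxylase that mouse liver makes mainly in males, was higher in Dnajb4-/- livers. Its intensity was 12365, 12475 and 12404 in the Dnajb4-/- arrays, against 10183, 10080 and 10093 in the Dnajb4+/+ arrays. Every Dnajb4-/- array thus lay above every Dnajb4+/+ array, and the gap between them was many times the spread within a genotype (means 12415 ± 55.5 and 10119 ± 56.0, SD, n = 3 each). The log2 difference was 0.30 (SE 0.0343, 95% interval 0.21 to 0.38), with an adjusted p of 0.00197 by limma. A single probe set, 1419349_a_at, reads this gene, and the letter a in its name marks probes shared by several transcripts of 1 gene.

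Cyp2d10 lies next to Cyp2d9, with 0 protein-coding genes between them in the RefSeq order. Its intensity was 8968, 9035 and 9080 in the Dnajb4-/- arrays, against 8537, 8346 and 8511 in the Dnajb4+/+ arrays. The arrays did not overlap, yet the log2 difference of 0.09 (SE 0.0351, 95% interval 0.01 to 0.18) did not pass the test over all genes (adjusted p = 0.131 by limma). It did pass in 5 of 16 other settings, among them centring on brighter probe sets (log2 difference 0.13, adjusted p = 0.0430).

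Cyp2d22 is the mouse gene held to be nearest to human CYP2D6, the enzyme that clears many antidepressants and opioids. It read 1145, 1199 and 1218 in the Dnajb4-/- arrays and 1227, 1204 and 1281 in the Dnajb4+/+ arrays, which overlapped. The log2 difference was -0.06 (95% interval -0.16 to 0.05, adjusted p = 0.429), and its separate probe sets gave -0.03 and -0.09. Cyp2d26, at the far end of the measured genes of the cluster, read 8923, 8632 and 8830 in Dnajb4-/- and 8805, 8714 and 8889 in Dnajb4+/+ arrays. These values interleaved, and the interval of its log2 difference ran from -0.09 to 0.08 around -0.0012 (adjusted p = 0.987).

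**Figure D2:**
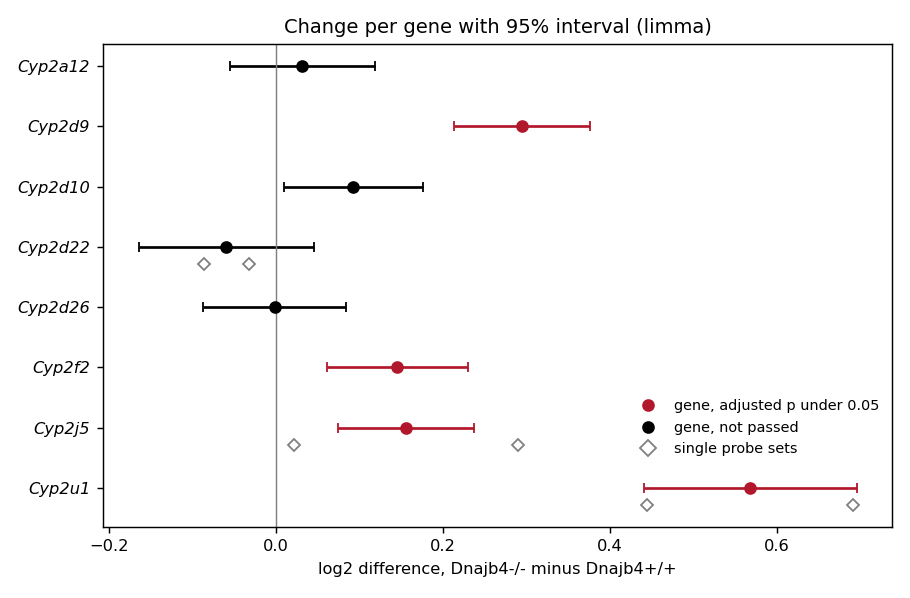
Log2 difference, Dnajb4-/- minus Dnajb4+/+, of each measured gene, with its 95% interval from the limma fit as a bar, diamonds for single probe sets where a gene has several, and a line at 0. Cyp2u1 lies farthest from 0 at 0.57, Cyp2d9 follows at 0.30, and the intervals of Cyp2a12, Cyp2d22 and Cyp2d26 include 0.

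To ask whether neighbouring Cyp2d genes changed by unlike amounts, the log2 difference between each pair of genes was taken within each array and then compared between the genotypes, over 6 pairs. The level of 1 probe set cannot be set against that of another, so only the change in such a difference is read. The change of Cyp2d9 exceeded that of Cyp2d10 by 0.20, that of Cyp2d26 by 0.30 and that of Cyp2d22 by 0.35 on the log2 scale. Cyp2d9 minus Cyp2d10 was 0.46, 0.47 and 0.45 in the Dnajb4-/- arrays and 0.25, 0.27 and 0.25 in the Dnajb4+/+ arrays. The change of Cyp2d10 exceeded that of Cyp2d22 by 0.15 and that of Cyp2d26 by 0.09. For these 5 pairs the arrays of the genotypes did not overlap. The exact two-sided permutation p was 0.1, or 0.12 adjusted over the 6 pairs, and this test cannot give less with 3 against 3 arrays. The pairs reuse the same few genes, so they are not separate observations. Of single genes above the upper quartile of signal, 62% did not overlap, and no such share was computed for pairs. Cyp2d22 minus Cyp2d26 changed by -0.06 with overlapping arrays (exact permutation p = 0.2). The sign of each pair was kept in all 57 values recomputed with other summaries or a left-out array. Where the arrays did not overlap, leaving out 1 array could not turn the sign. For genes with 1 probe set, another summary over probe sets changes nothing, so the count of kept signs says little. The probe sequences were not analysed here, so signal shared between close copies of Cyp2d cannot be told apart from each gene's own.

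**Figure D3:**
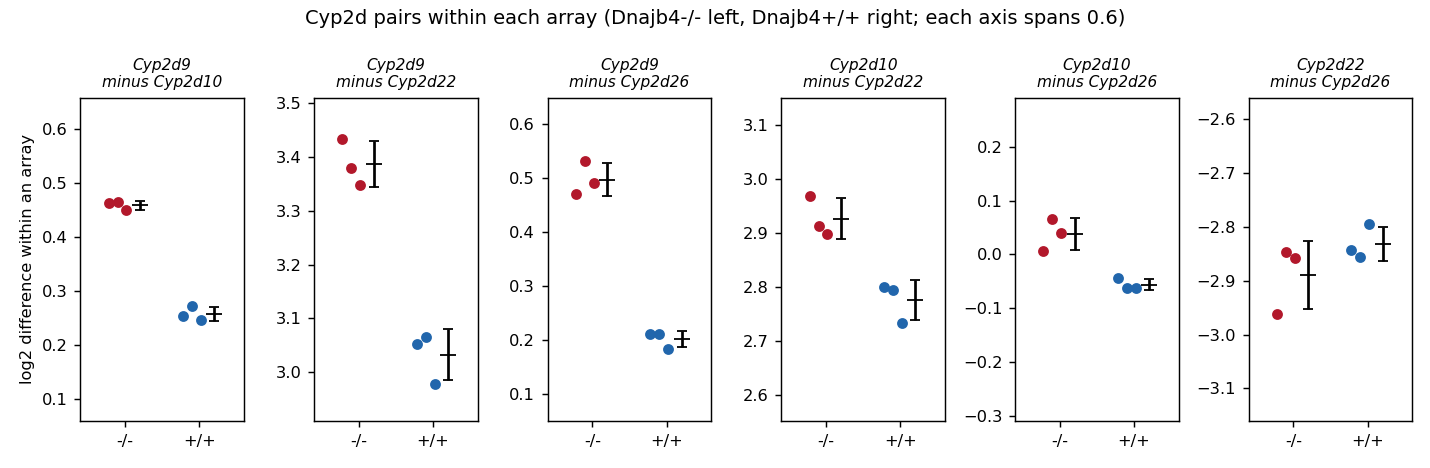
Difference between the log2 intensities of 2 Cyp2d genes within each array, for 6 pairs, with the Dnajb4-/- arrays left of the Dnajb4+/+ arrays and the mean and SD beside them. The points of the genotypes are apart in 5 pairs, by 0.35 for Cyp2d9 minus Cyp2d22, and overlap for Cyp2d22 minus Cyp2d26.

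The DNA before the start of 3 Cyp2d genes is shown because Cyp2d9 was higher, its neighbour Cyp2d10 did not pass and Cyp2d26 lay near 0. The windows come from RefSeq on build GRCm38.p6, and each holds the 250 bases before the annotated start, 5′ to 3′ on the gene's strand. Cyp2d9 is at chr15:82452127-82452376 on the plus strand, Cyp2d10 at chr15:82407195-82407444 and Cyp2d26 at chr15:82794246-82794495, both on the minus strand. Capitals mark CAAAGNNCA, letters found in many binding sites of HNF4, a nuclear receptor that keeps hepatocyte genes on, and TTCCGG, the core letters of sites of ETS factors such as GABP.
Cyp2d9: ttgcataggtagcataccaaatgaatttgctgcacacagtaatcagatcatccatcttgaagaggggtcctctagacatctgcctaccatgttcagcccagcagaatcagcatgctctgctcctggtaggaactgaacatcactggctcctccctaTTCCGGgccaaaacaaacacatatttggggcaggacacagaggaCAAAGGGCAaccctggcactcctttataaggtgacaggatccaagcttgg
Cyp2d10: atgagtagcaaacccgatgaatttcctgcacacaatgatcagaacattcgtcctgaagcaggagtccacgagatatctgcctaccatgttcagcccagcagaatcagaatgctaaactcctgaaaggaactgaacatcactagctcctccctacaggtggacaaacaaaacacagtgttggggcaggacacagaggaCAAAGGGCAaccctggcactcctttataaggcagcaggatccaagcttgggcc
Cyp2d26: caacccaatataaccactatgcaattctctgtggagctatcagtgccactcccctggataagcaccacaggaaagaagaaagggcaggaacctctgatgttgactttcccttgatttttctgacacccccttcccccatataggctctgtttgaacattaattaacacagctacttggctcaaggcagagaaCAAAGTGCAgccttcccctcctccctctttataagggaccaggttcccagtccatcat
CAAAGNNCA stands at -50 to -42 in Cyp2d9, at -53 to -45 in Cyp2d10 and at -58 to -50 in Cyp2d26, counted from the start, with the letters CAAAGGGCA in Cyp2d9 and Cyp2d10 and CAAAGTGCA in Cyp2d26. TTCCGG stands at -94 to -89 in Cyp2d9 and is not in the windows of the other pair.

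Windows of the same kind, with 50 bases after the start added, were found for 8 of the 10 genes, and motifs chosen after the sequences were seen were searched on both strands. CAAAGNNCA was in 4 of 8 windows, the fourth being Cyp2a12 at -74 to -66, and in 6.36% of the 32851 windows of the table. TTCCGG was in 1 of 8 and in 14.9% of all. TTCNNNGAA, the palindrome of STAT sites, was in 0 of 8 and in 8.3% of all. TATAAA, the letters of a TATA box, was in 7 of 8 anywhere in the window on either strand, missing from Cyp2f2, and in 13.6% of all. It stood on the gene's own strand in Cyp2a4, Cyp2a5 and Cyp2a12. In Cyp2d9, Cyp2d10, Cyp2d26 and Cyp2j5 it was on the other strand alone, in Cyp2j5 at -128 to -123. No match of 1 motif overlapped a match of another. The windows of Cyp2d9 and Cyp2d10 were identical at 252 of 296 aligned bases (85.1%), those of Cyp2d9 and Cyp2d26 at 65.9% and those of Cyp2d10 and Cyp2d26 at 66.7%. Hnf4a, the gene of a receptor for the first motif, read 1017, 1033 and 979 in Dnajb4-/- arrays and 902, 906 and 884 in Dnajb4+/+ arrays (log2 difference 0.17, adjusted p = 0.0311 by limma). Such matches describe letters and not bound sites, and no binding was measured.

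Cyp2a12 and Cyp2f2 are neighbours on chromosome 7, with 0 protein-coding genes between them. Cyp2a12 encodes a testosterone hydroxylase of mouse liver. Its intensity was 7948, 8276 and 8104 in the Dnajb4-/- arrays, against 7861, 7999 and 7937 in the Dnajb4+/+ arrays. The values overlapped, and the log2 difference of 0.03 had an interval of -0.06 to 0.12 (adjusted p = 0.621).

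Cyp2f2 activates naphthalene to a toxic epoxide, is abundant in club cells of the mouse lung and in the liver is made mostly around the portal vein. It was higher in Dnajb4-/- livers, with 14536, 14698 and 14979 in the Dnajb4-/- arrays and 13280, 13263 and 13434 in the Dnajb4+/+ arrays. The arrays did not overlap (means 14738 ± 223.9 and 13325 ± 94.5, SD, n = 3 each). The log2 difference was 0.15 (SE 0.0356, 95% interval 0.06 to 0.23), with an adjusted p of 0.0376 over genes and 0.0629 over probe sets by limma. The call was thus close to the threshold, and it was lost when any 1 of the 6 arrays was left out (log2 difference 0.13 to 0.16, adjusted p = 0.0710 to 0.113).

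Cyp2j5 on chromosome 4 makes epoxides of arachidonic acid and is known from mouse kidney and liver. Its mean over probe sets, taken on the log2 scale, was 3161, 3137 and 3134 in Dnajb4-/- and 2808, 2833 and 2824 in Dnajb4+/+ arrays (log2 difference 0.16, SE 0.0343, adjusted p = 0.0261 by limma). The probe sets behind this mean differed. The dimmer, 1417532_at, read 1604, 1568 and 1592 in Dnajb4-/- and 1273, 1313 and 1312 in Dnajb4+/+ arrays (log2 difference 0.29, adjusted p = 0.00657 over probe sets by limma). The brighter, 1417531_at, read 6228, 6276 and 6166 in Dnajb4-/- and 6194, 6114 and 6081 in Dnajb4+/+ arrays, which overlapped (log2 difference 0.02, adjusted p = 0.771). The difference between them changed by -0.27 on the log2 scale with no overlap between the genotypes (exact two-sided permutation p = 0.1, the smallest possible, or 0.3 adjusted over the 3 genes with a pair of probe sets). The higher call of Cyp2j5 therefore rests on 1 of its probe sets, and it was also lost when any 1 array was left out (adjusted p = 0.0616 to 0.0902).

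Cyp2u1, a fatty acid hydroxylase found in many tissues, had the largest log2 difference of the 8 genes and the lowest signal. Its mean over probe sets, taken on the log2 scale, was 116, 120 and 128 in Dnajb4-/- and 84.7, 82.3 and 78.2 in Dnajb4+/+ arrays. The arrays were well apart (means 121 ± 6.42 and 81.7 ± 3.26, SD, n = 3 each), with a log2 difference of 0.57 (SE 0.0538, 95% interval 0.44 to 0.70) and an adjusted p of 0.000899 by limma. Both probe sets moved the same way and passed. 1453500_at read 235, 249 and 246 in Dnajb4-/- and 168, 182 and 187 in Dnajb4+/+ arrays (log2 difference 0.44, adjusted p = 0.00383), and 1444960_at read 57.0, 57.4 and 67.0 in Dnajb4-/- and 42.7, 37.2 and 32.8 in Dnajb4+/+ arrays (log2 difference 0.69, adjusted p = 0.00907). The Dnajb4+/+ values of 1444960_at were little above the array medians of 31.8 to 32.5. With 16 added before log2, the log2 difference of Cyp2u1 was 0.46. Cyp2u1 lies on chromosome 3, as Dnajb4 does, with 100 protein-coding genes between them in RefSeq. Over single probe sets, 4 of the 11 that read the 8 genes passed, all as higher, whereas 13.5% of all probe sets passed, 5.2% as higher and 8.34% as lower. The arrays of the genotypes did not overlap at 6 of the 11, against 35.1% of all probe sets. Most of the 11 are bright, and no share was computed for bright probe sets alone. Of genes above the upper quartile of signal, 62% did not overlap and 30.8% passed, 9.43% as higher and 21.4% as lower.

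**Figure D4:**
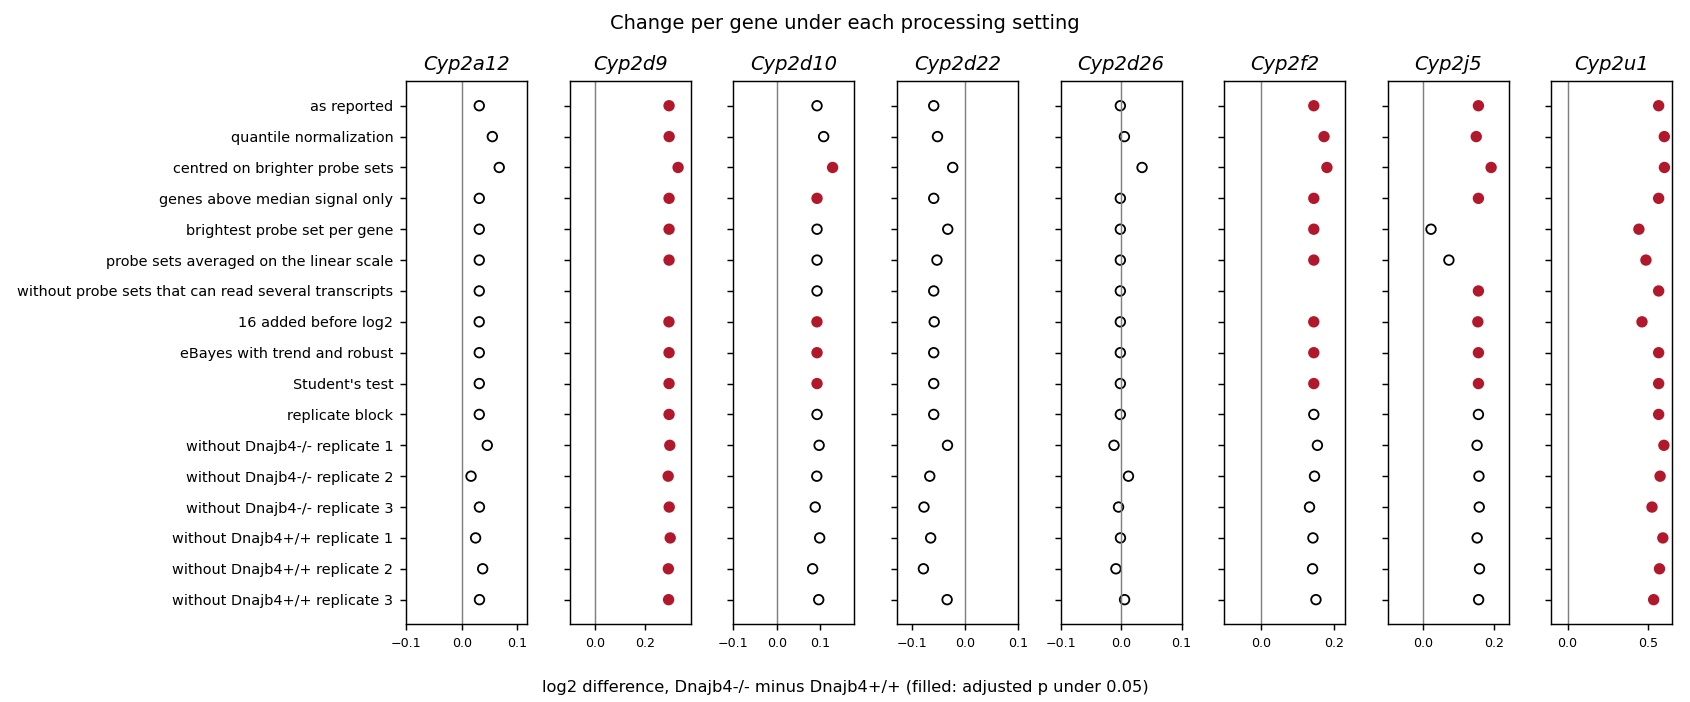
Log2 difference, Dnajb4-/- minus Dnajb4+/+, of each measured gene under each processing setting, on an axis that differs between panels, with filled points for an adjusted p under 0.05 and no point where a setting did not measure the gene. Cyp2u1 passed in all 16 alternatives and Cyp2d9 in all 15 that measured it, Cyp2f2 in 8 of 15 and Cyp2j5 in 7 of 16.

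Of 8 further measured Cyp2d and Cyp2j genes, 0 were higher and 1 was lower, and 7 did not pass, with a median log2 difference of 0.01. The lower one was Cyp2d13, at 489, 495 and 481 in Dnajb4-/- and 557, 542 and 588 in Dnajb4+/+ arrays (log2 difference -0.20, adjusted p = 0.0249). None of the 4 further Cyp2j genes passed, with log2 differences of -0.03 to 0.13. Cyp2j11 (22.7 to 24.6) and Cyp2j13 (11.8 to 14.5) read below the array medians of 31.8 to 32.5 in every array. Cyp2d34 (11.3 to 13.9) did so too, and the lack of a call for such dim genes says little. Of 19 measured genes of other Cyp2 subfamilies, 9 were lower and none higher, with a median of -0.31, and 10 did not pass. The lower ones were Cyp2b9 (-5.55), Cyp2b13 (-3.67), Cyp2g1 (-1.77), Cyp2b10 (-0.78), Cyp2c38 (-0.78), Cyp2c37 (-0.48), Cyp2c54 (-0.46), Cyp2c68 (-0.45) and Cyp2c23 (-0.37), on the log2 scale. Cyp2b9 and Cyp2b13 are known as genes of female mouse liver, and Cyp2b10 as the classic gene induced by phenobarbital. These lists were chosen with their values known, and the difference between the groups of subfamilies was not tested.

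**Figure D5:**
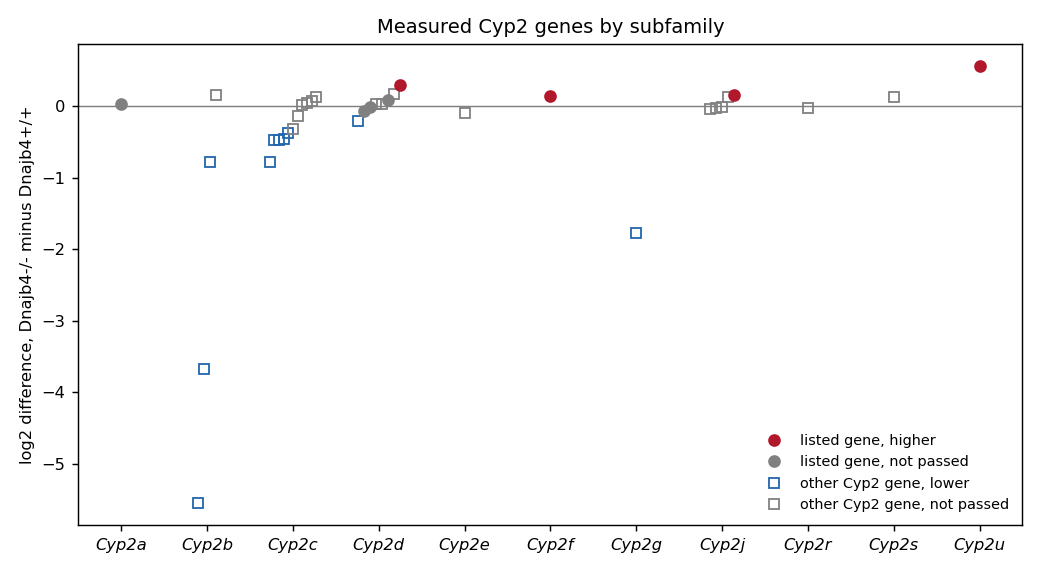
Log2 difference, Dnajb4-/- minus Dnajb4+/+, of each measured Cyp2 gene by subfamily, with filled circles for the genes described here and open squares for other Cyp2 genes. The filled circles lie between -0.06 and 0.57, and the lowest square is Cyp2b9 at -5.55.

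P450 enzymes need partners that hand them electrons. Of 6 measured genes of such partners, 1 was lower, none was higher and 5 stayed under the threshold, with a median log2 difference of -0.03. The lower one, Cyb5r1, a cytochrome b5 reductase, read 79.1, 83.6 and 87.7 in Dnajb4-/- and 103, 98.5 and 104 in Dnajb4+/+ arrays (log2 difference -0.29, adjusted p = 0.0114). Por, the main reductase of these enzymes, was not measured.

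Of 25 measured transcription factors and receptors known to act on Cyp2 genes, 7 were higher and 11 lower, while 7 stayed under the threshold, with a median of -0.0013. Dbp, a clock-controlled activator, read 215, 198 and 212 in Dnajb4-/- and 1727, 1698 and 1740 in Dnajb4+/+ arrays (log2 difference -3.05, adjusted p = 1.59e-07), and its relative Tef was also lower (-0.85, adjusted p = 0.000166). Bcl6, a repressor that is higher in male than in female mouse liver, read 135, 138 and 137 in Dnajb4-/- and 66.9, 62.4 and 60.2 in Dnajb4+/+ arrays (log2 difference 1.12, adjusted p = 2.62e-05). Nr0b2, the repressor SHP, was higher by 1.09 (adjusted p = 8.42e-05). Of 14 clock genes, which include Dbp, 4 were higher and 10 lower, with a median of -0.63. The time of day at which each liver was taken was not found in the labels, and the part of these regulators in the values of the Cyp2 genes was not tested.

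Cyp2d9 is a gene of male liver, and other genes that differ between the sexes moved with it. Of 13 measured male-high liver genes, 9 were higher in Dnajb4-/- and 1 was lower, with a median log2 difference of 0.34. Among them were Elovl3 (1.25), Bcl6 (1.12), Ugt2b38 (0.99) and Hsd3b5 (0.67). Of 16 measured female-high genes, 14 were lower and none higher, with a median of -2.42, and their summed intensity was 518.3 to 532.7 in Dnajb4-/- and 8124 to 8541 in Dnajb4+/+ arrays. Of 3 measured Y-linked genes, among them the dim Uty and Kdm5d, 0 passed. Their sums were 127.4 to 133.6 in Dnajb4-/- and 107 to 120.4 in Dnajb4+/+ arrays. Xist, given above, separated the arrays in the same way, and its part in the value of Cyp2d9 cannot be told apart from that of the genotype.

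Cyp2f2 is a periportal gene, and genes of the lobule's zones gave mixed counts. Of 11 measured periportal genes, 3 were higher and 1 was lower (median -0.04), with Cdh1 at 0.97, G6pc at 0.32 and Hal at 0.20 as the higher ones and Asl at -0.28 as the lower one. Of 13 pericentral genes, 8 were lower and none higher (median -0.15), with Nr1i3 at -0.73 and Lect2 at -0.52 farthest from 0. The part of zonation in the value of Cyp2f2 was not tested.

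Markers of cell types were set beside these genes. Of 10 measured hepatocyte markers 2 were higher and 2 lower, with sums of 137600 to 138500 in Dnajb4-/- and 140600 to 141200 in Dnajb4+/+ arrays, so both genotypes carried the defining markers of liver. Of 7 Kupffer cell and macrophage markers 6 were lower, with sums of 3282 to 3430 in Dnajb4-/- and 4291 to 4487 in Dnajb4+/+. Of 6 endothelial markers 4 were lower, with sums of 1027 to 1089 in Dnajb4-/- and 1195 to 1233 in Dnajb4+/+. Of 10 skeletal muscle markers 9 were lower, with sums of 352 to 361.3 in Dnajb4-/- and 730.7 to 789.8 in Dnajb4+/+. The part of these markers in the values of the Cyp2 genes was not tested. Kidney markers, listed since kidney makes Cyp2j5, gave 0 of 6 that passed, with sums of 98.11 to 115.1 in Dnajb4-/- and 93.31 to 104.7 in Dnajb4+/+. The 4 cholangiocyte markers gave 1 higher (145.3 to 149.7 in Dnajb4-/-, 125.6 to 141.9 in Dnajb4+/+) and the 6 stellate cell and fibroblast markers 1 lower (527.9 to 556.5 in Dnajb4-/-, 561.1 to 590.5 in Dnajb4+/+). The 2 adipocyte markers gave 1 lower (70.89 to 83.92 in Dnajb4-/-, 75.39 to 85.84 in Dnajb4+/+), the 3 lymphocyte markers 0 (94.48 to 106.4 in Dnajb4-/-, 97.29 to 102.9 in Dnajb4+/+) and the 3 pancreatic acinar markers 0 (65.25 to 68.94 in Dnajb4-/-, 61.85 to 67.3 in Dnajb4+/+). Divided by their number of genes, the kidney and pancreatic acinar sums lie below the array medians of 31.8 to 32.5. The lack of a call for these dim markers says little. No marker is listed at 0, since the lowest value of the table is 3.90.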

How the data were processed

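The authors used GeneSpring for GCRMA (background from probe GC content, normalization between arrays, 1 value per probe set) and global median centring. The deposited table holds linear intensities, with array medians of 31.8 to 32.5. Raw signal and detection calls were not used here, so which values lie at background is unknown. The number of arrays limits the precision. Correlations between arrays were 0.998 within a genotype and 0.993 to 0.995 between genotypes.

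Of 45101 probe sets, 64 controls were left out, and 932 with several gene symbols and 9160 with none entered no gene value. For the 34945 others, log2 values were taken and their mean formed for each gene. The fit used limma 3.58.1 under R 4.3.3 (lmFit, then eBayes, two-sided, no filter). Benjamini-Hochberg adjustment ran over 18193 genes, or over 34945 probe sets, and an adjusted p under 0.05 was a call. The labels call the replicates biological, and groups and sexes were taken from them. Replicate numbers were not used as a block.

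The text names all members and Dnajb4. For each list, up to 4 genes with the largest log2 difference among those passing, or 2 where none did, could be named. Not all of these are named, and the female-high, clock and most cell type lists are given mainly as counts. Xist, the Y-linked genes and the Gapdh and Actb controls were named for sex and RNA quality. Added to these are Por, the remaining lower Cyp2c genes, the further Cyp2j genes and Cyp2d34. The members and lists were chosen with earlier results of these data known, so the counts of a list are a description. Alternatives were another normalization, centring, filter, summary per gene, offset, variance model and test, the replicate block, and each array left out in turn. The fit was tested on simulated data. Sequences are from RefSeq (GRCm38.p6), read in python 3.11.15 and aligned with biopython 1.88, and figures were drawn with matplotlib 3.10.9.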

Additional observations from a re-analysis of the deposited data

How the results depend on the processing

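Cyp2d9 and Cyp2u1 passed the test in every alternative that measured them. The count of genes higher in Dnajb4-/- was 4, and it was 2 after removal of probe sets that may bind more than 1 transcript, where 6 members were measured because Cyp2d9 and Cyp2f2 have no other probe set. It was also 2 with the replicate block, where Cyp2f2 (adjusted p = 0.112) and Cyp2j5 (adjusted p = 0.0971) were lost, and 2 with any 1 array left out (2 to 2). None of the 8 measured members was lower in any setting, and the probe set shared by Cyp2a4 and Cyp2a5 is not among them. Cyp2j5 was also lost with the brightest probe set (log2 difference 0.02, adjusted p = 0.714) and with averaging on the linear scale (0.07, adjusted p = 0.160), which both weigh 1417531_at more. Cyp2d10 passed with centring on brighter probe sets (adjusted p = 0.0430), with brighter genes alone (0.0383), with 16 added before log2 (0.0384), with a variance trend and robust fit (0.000492) and with Student's test (0.0211).

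Cyp2d26, near 0, turned to 0.0055 with quantile normalization and to 0.0347 with centring on brighter probe sets, and ran from -0.0117 to 0.0122 with 1 array left out, without passing. Of all genes, 2667 passed, 1529 with the replicate block and 1552 to 2009 with 1 array left out, which leaves fewer samples. The causes of the other changes were not tested. Arrays with the same replicate number did not deviate together (correlations of -0.02, -0.14 and 0.01). Other than for Cyp2f2 and Cyp2j5, the block changed no member's call.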

Other observations

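Cyp2a4 and Cyp2a5, the testosterone hydroxylase and the coumarin hydroxylase of mouse liver, share 1 probe set, 1422230_s_at, whose signal can be given to neither gene alone. It read 3774, 3904 and 3942 in the Dnajb4-/- arrays, against 9415, 9520 and 9676 in the Dnajb4+/+ arrays. All Dnajb4-/- arrays lay far below all Dnajb4+/+ arrays (means 3873 ± 88.2 and 9537 ± 130.9, SD, n = 3 each), with a log2 difference of -1.30 (SE 0.0455) and an adjusted p of 1.79e-05 by limma over 45037 probe sets. The RefSeq windows of the pair were identical at 294 of 299 aligned bases (98.3%), and those of Cyp2a5 and Cyp2a12 at 66.4%. Both windows of the pair hold TTATGNAA, a form of the letters bound by PAR bZIP factors such as DBP, on the minus strand at -70 to -63 in Cyp2a4 and at -71 to -64 in Cyp2a5. The same letters were in no other of the 8 windows and in 3.38% of all windows. Dbp is given above with a log2 difference of -3.05. Xist (-4.58) and 14 of the 16 measured female-high liver genes were also lower in Dnajb4-/- livers, and none of the 16 was higher. The part of Dbp, or of what moved Xist and the female-high genes, in the value of the shared probe set was not tested.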
